A study of Mus musculus with 12 samples.

Results

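H3K27ac regions found in control cardiomyocytes (CMs) and not in RIP140-null CMs were examined here, restricted to those that lay away from promoters and were built from several replicate calls. A region was a member if it overlapped no region of the KO list by 1 bp or more, carried 3 or more subpeaks and was under 10000 bp wide. Its center also had to lie more than 1000 bp and at most 100 kb from the nearest transcription start site (TSS) of a protein-coding gene. Of the 53750 regions of the control list on chromosomes 1 to 19 and X, 666 were members. They covered 1786 kb in all, which was 1.18% of the length covered by the control list. The members were selected on their measured overlap, subpeak number, width and position, so these properties are given as descriptions and were not tested.

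RIP140, encoded by *Nrip1*, is a corepressor of nuclear receptors and other transcription factors. Control mice were *Nrip1* f/f Cre- littermates, and csNrip1-/- (KO) mice were *Nrip1* f/f with Cre recombinase expressed from the Nkx2.5 promoter, which is active in cardiac progenitors from early development. Both genotypes thus carried the floxed allele, and the presence of Cre and the loss of RIP140 cannot be told apart. CMs were enriched from hearts of mice aged 10 to 12 weeks by perfusion and low-speed centrifugation, and H3K27ac was profiled by CUT&RUN in 200000 cells per experiment, with 3 H3K27ac and 3 IgG replicates per genotype. The deposited files hold 1 merged list of regions per genotype. A region of such a list was present in at least 2 of the 3 replicates, and the number of subpeaks counts the replicate regions merged into it. The lists give no signal, no value per replicate and no depth, so every value below is without replicate error, and intervals of shares (95%, Wilson) cover counting error only. A region absent from the KO list may still carry H3K27ac below the calling threshold there.

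In CUT&RUN, an antibody brings a nuclease to chromatin, and the DNA released by cutting is sequenced. Acetylation of lysine 27 of histone H3 is deposited by the acetyltransferases p300 and CBP and is found at active enhancers and promoters, and corepressors recruit histone deacetylases that remove it. Enhancers of CMs are commonly bound by MEF2, GATA, TBX5, TEAD and SRF proteins, and the estrogen-related receptors (ERRs) control genes of energy metabolism in these cells.

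The members are shown first through the DNA around such consensus motifs. For each of 7 motifs, 120 bases of the plus strand of GRCm38 (RefSeq) are printed from the member with most subpeaks among those with a match in their central 200 bp, with the match in capitals. The 7 members lie in or near *Rbpj*, the DNA-binding effector of Notch signaling, *Spag9*, a scaffold of JNK signaling, Gm10604, *Ets1*, a transcription factor, *Fbxo34*, an F-box protein, *Abcg2*, an efflux transporter, and *Vps13d*, which acts in mitochondrial clearance.
Rbpj, MEF2, chr5:53608057-53608176: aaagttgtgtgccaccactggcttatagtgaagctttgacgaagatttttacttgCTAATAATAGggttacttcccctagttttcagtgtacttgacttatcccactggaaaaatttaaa
Spag9, ERR, chr11:94007900-94008019: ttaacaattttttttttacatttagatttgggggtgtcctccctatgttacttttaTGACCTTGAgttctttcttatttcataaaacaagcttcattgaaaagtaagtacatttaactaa
Gm10604, GATA, chr4:12008355-12008474: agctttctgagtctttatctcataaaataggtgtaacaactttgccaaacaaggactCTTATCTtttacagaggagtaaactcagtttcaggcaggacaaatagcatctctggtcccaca
Ets1, TEAD, chr9:32748357-32748476: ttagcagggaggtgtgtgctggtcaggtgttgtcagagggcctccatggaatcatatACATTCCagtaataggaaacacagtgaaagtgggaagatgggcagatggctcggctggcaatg
Fbxo34, AP-1, chr14:47511888-47512007: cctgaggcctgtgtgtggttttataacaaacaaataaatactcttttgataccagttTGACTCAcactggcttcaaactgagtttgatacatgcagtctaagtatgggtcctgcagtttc
Abcg2, SRF, chr6:58655016-58655135: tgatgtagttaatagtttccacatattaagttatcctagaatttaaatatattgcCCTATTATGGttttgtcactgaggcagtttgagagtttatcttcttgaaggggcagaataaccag
Vps13d, TBX5, chr4:145111002-145111121: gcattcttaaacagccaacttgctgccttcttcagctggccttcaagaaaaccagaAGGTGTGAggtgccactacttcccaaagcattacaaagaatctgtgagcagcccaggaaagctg
The MEF2 match near *Rbpj* was 1 of 8 among the members, and the ERR match near *Spag9* was 1 of 2, read here on the plus strand as the reverse complement of TCAAGGTCA. The GATA consensus AGATAAG was matched in 24 members, the TEAD consensus ACATTCC in 16, the AP-1 consensus TGANTCA in 52, the SRF consensus in 4 and the TBX5 consensus AGGTGTGA in 6. In total, 559 members held none of the 7 motifs in their central 200 bp, 102 held 1 and 5 held 2.

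The 10 genes with most members (ties by summed width, described below) had 4 members at *Stxbp6* and 3 at each of the others. Of these members, 6 held a match to 1 of these motifs. Among all members, 15.3% held 1 of the 7 motifs and 0.751% held 2. The 6 are shown because they lie in the loci with the highest counts. Each motif was GATA or AP-1, also the commonest of the 7 among all members, in 24 and 52. No match was found to MEF2, ERR, TEAD, SRF or TBX5.
Stxbp6, GATA, chr12:44913254-44913373: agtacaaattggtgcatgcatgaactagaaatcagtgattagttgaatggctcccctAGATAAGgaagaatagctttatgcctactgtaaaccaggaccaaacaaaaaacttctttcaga
Stxbp6, AP-1, chr12:45033785-45033904: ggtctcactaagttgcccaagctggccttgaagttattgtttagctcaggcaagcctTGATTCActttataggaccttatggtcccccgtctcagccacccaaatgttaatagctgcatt
Sorbs2, AP-1, chr8:45815979-45816098: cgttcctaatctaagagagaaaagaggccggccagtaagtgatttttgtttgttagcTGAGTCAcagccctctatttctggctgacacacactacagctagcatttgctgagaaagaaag
Ankrd44, GATA, chr1:54888653-54888772: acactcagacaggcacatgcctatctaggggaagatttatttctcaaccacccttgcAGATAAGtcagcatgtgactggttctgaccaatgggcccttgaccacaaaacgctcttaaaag
Gnaq, GATA, chr19:16176910-16177029: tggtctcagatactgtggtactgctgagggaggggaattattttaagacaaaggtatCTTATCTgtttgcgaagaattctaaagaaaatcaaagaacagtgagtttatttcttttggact
1700020N01Rik, AP-1, chr10:21696830-21696949: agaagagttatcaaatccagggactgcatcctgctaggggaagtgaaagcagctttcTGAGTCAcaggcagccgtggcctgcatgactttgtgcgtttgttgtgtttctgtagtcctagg
The match lay between 0 and 69 bp from the center of these 6 regions. A match is a run of letters and not evidence of binding, and a window without one may still be bound.

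The members were a small fraction of the control regions that overlapped no KO region. The KO list was shorter, with 45517 regions against 53750 in the control list. Regions of 2 subpeaks made up 60.95% of the KO list and 68.92% of the control list. The part of these differences in the lack of overlap was not tested. The paper, which compared tag counts in pooled samples, reported fewer decreased than increased peaks in KO CMs. In the control list, 15844 regions (29.5%) overlapped no KO region, and 906 of these had 3 or more subpeaks. Removing those within 1000 bp of a TSS left 818, and removing those more than 100 kb away left 666. Among all distal control regions with 3 or more subpeaks, 666 of 9612 (6.93%) were members and 8946 overlapped a KO region. The mirror-image rule in the KO list gave 726 of 9374 (7.74%) KO-only regions. A further 11386 distal control-only regions had 2 subpeaks. No member sat at the width limit, since the widest measured 9949 bp and no region was lost to that limit. At the inner distance limit, the nearest member lay 1105 bp from a TSS and the nearest region left out lay at 947 bp. At the outer limit, these distances were 99687 and 100149 bp. The smallest gap between a member and a KO region was 21 bp, while the smallest overlap among shared regions was 18 bp.

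Most members were built from the smallest number of subpeaks allowed. There were 603 members (90.5%) with 3 subpeaks, 54 with 4, 7 with 5 and 2 with 6. Their widths ranged from 593 to 9949 bp, with a median of 2465 bp and quartiles of 1646 and 3483 bp. Width rose with subpeak number, from a median of 2321 bp at 3 subpeaks to 4437 bp at 4 and 5120 bp at 5. The KO-only regions chosen by the same rule had nearly the same median width, 2474 bp. Shared regions were wider, with a median of 4322 bp, and control-only regions of 2 subpeaks were narrower, with a median of 1008 bp.

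**Figure D1:**
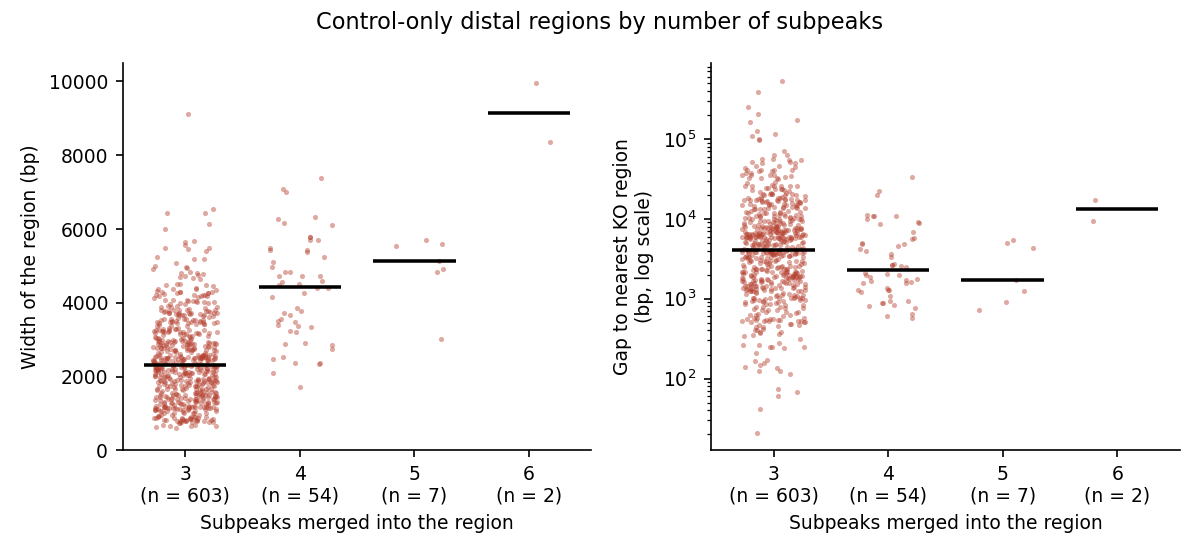
Width (left, bp) and gap to the nearest KO region (right, bp, log scale) of each of the 666 members, by the number of subpeaks merged into the region; points are regions and black lines are medians. Median width is 2321 bp at 3 subpeaks (n = 603) and 4437 bp at 4 (n = 54), while the median gap is 4109 and 2288 bp, respectively.

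Members were more frequent among narrow regions. Among distal control regions with 3 or more subpeaks, 20.7% (interval 18.5% to 23.2%) of the 1119 regions under 2000 bp were members. The share fell to 12.1% at 2000 to 3000 bp, 5.83% at 3000 to 5000 bp and 1.14% (41 of 3586) from 5000 bp upward. KO-only shares in the KO list were 25.3%, 12.6%, 6.99% and 1.68% in the same bins. A wider region offers more positions at which a region of the other list can overlap it, so the rule is itself tied to width. The shares are counts of regions that the rule used, and no test was made of them.

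**Figure D2:**
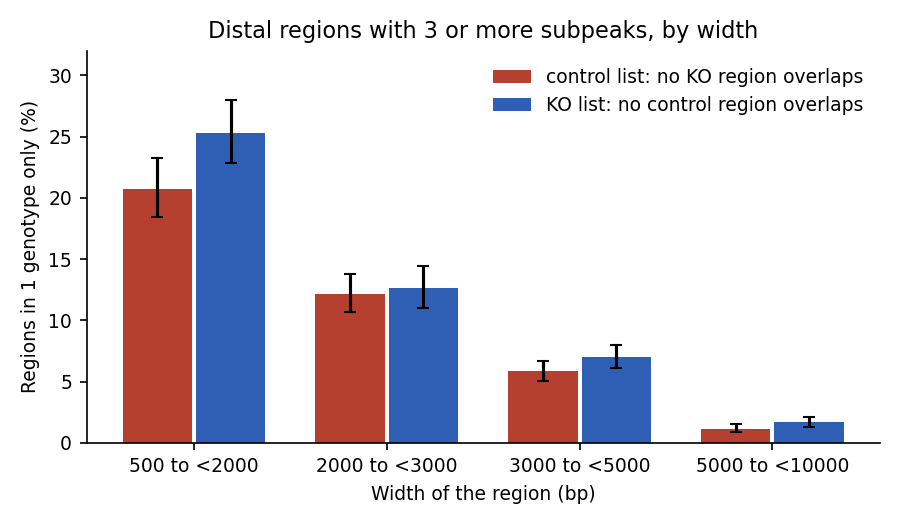
Share of distal regions with 3 or more subpeaks that overlap no region of the other genotype (%), in 4 bins of width (bp), for the control list (red) and the KO list (blue); bars are shares and error bars are 95% Wilson intervals of counts. Both lists fall with width, from 20.7% and 25.3% below 2000 bp to 1.14% and 1.68% at 5000 bp and above.

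Members were mostly interspersed among regions that both genotypes shared, and such regions also made up most of the control list. The median gap to the nearest KO region was 4064 bp, and gaps ranged from 21 to 536780 bp. A KO region lay within 500 bp of 39 members (5.86%) and between 500 and 1000 bp from a further 65. It lay 1000 to 5000 bp away for 272, 5000 to 20000 bp away for 218 and more than 20000 bp away for 72 members (10.8%). That nearest KO region overlapped a control region of its own for 528 members (79.3%) and was itself KO-only for 138 (20.7%). A KO-only region of any kind lay within 5000 bp of 89 members (13.4%), and a distal one with 3 or more subpeaks within 5000 bp of 10 (1.50%). When control regions less than 12500 bp apart were joined into domains, 526 members (79.0%) shared a domain with a region found in both genotypes. Alone in their domain were 93 members (14.0%), and 57 (8.56%) had another member in it, whether or not a shared region was also present. A member's domain held a median of 5 control regions, and the largest held 36. The median gap from a member to any other control region was 2736 bp. KO-only regions lay a median of 3423 bp from the nearest control region, with 9.37% beyond 20000 bp. Control-only regions of 2 subpeaks lay a median of 4990 bp from a KO region, with 17.0% beyond 20000 bp. The shares by type of neighbor and by domain are given for members only.

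The distance to the nearest protein-coding TSS had a median of 18744 bp among members. It was 14302 bp among KO-only regions, 13340 bp among shared regions and 16585 bp among control-only regions of 2 subpeaks. In all, 344 members (51.7%) lay 10 to 50 kb from a TSS, 102 (15.3%) within 5 kb and 117 (17.6%) beyond 50 kb. The member's center lay inside the gene with the nearest TSS for 459 (68.9%), upstream of it for 104 (15.6%) and downstream for 103 (15.5%). For KO-only regions, these shares were 63.4%, 24.1% and 12.5%. A TSS of a gene that is not protein coding lay within 1 kb of 19 members (2.85%), against 40 KO-only (5.51%) and 402 shared regions (4.49%). No chromosome held a large excess of members. Their share of the distal control regions with 3 or more subpeaks ran from 4.94% on chromosome 16, which carries *Nrip1*, to 8.87% on chromosome 14, and was 7.14% on chromosome X. None of the 5 distal control regions with 3 or more subpeaks nearest *Nrip1* was a member.

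The genomic class of a region, which the rule used only through its distance from a TSS, was tested against that of comparable regions. By their centers, 450 members (67.6%, interval 63.9% to 71.0%) lay in introns of protein-coding genes and 175 (26.3%) were intergenic. Transcription termination sites (TTS, from 100 bp upstream to 1000 bp downstream of a transcript's end) held 19, exons 13, 3′ UTRs 9 and 5′ UTRs 0. Introns held 63.8% of KO-only and 65.0% of shared regions. The smallest P value was at TTS, with 2.85% of members against 5.92% of KO-only regions, a difference of -3.07 percentage points (2-sided Fisher's exact test, P = 0.00606, Benjamini-Hochberg adjusted P = 0.0727 over 12 tests). Shared regions were at TTS in 3.13% of cases (exact test, adjusted P = 1). None of the 12 class comparisons with KO-only and shared regions passed an adjusted threshold of 0.05, and the comparison at TTS with KO-only regions was the single comparison with an unadjusted P below it. These P values describe regions, which neighbor each other on chromosomes, and not mice.

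Members differed from KO-only and shared regions in base composition, which is given as a description and was not tested. They had a median GC content of 43.4% over the whole region (quartiles 40.2% and 46.6%), against 46.4% in KO-only regions (42.3% and 50.2%) and 45.2% in shared regions (42.1% and 48.6%). The difference in medians was -2.93 percentage points from KO-only and -1.78 from shared regions. Under 40% GC were 162 members (24.3%, interval 21.2% to 27.7%), 111 KO-only regions (15.3%) and 1148 shared regions (12.8%). Control-only regions of 2 subpeaks had a median of 43.3%, close to that of the members, and the whole lists had medians of 45.0% in control and 45.7% in KO. The lower GC content was not limited to the region itself. In 200-bp bins, mean GC content around members stayed between 42.9% and 44.1% out to 5000 bp on both sides of the center. It was below that of KO-only and shared regions at each distance. In 200-bp windows, the median was 44% at the center of members and 44% in flanking windows 5000 bp outside them. Intergenic members had a median GC content of 44.3% and intronic members of 42.9%. Repeat-masked sequence made up a median of 19.2% of members, 17.6% of KO-only and 19.6% of shared regions. The ratio of observed to expected CpG was 0.182, 0.199 and 0.208, respectively. The part of GC bias of the libraries in these differences was not tested, as the lists hold no reads.

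**Figure D3:**
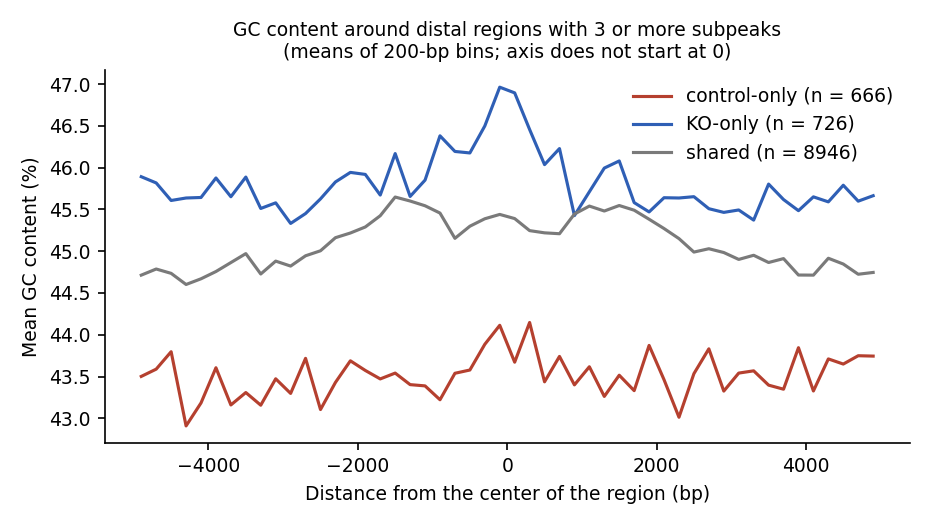
Mean GC content (%) in 200-bp bins against distance from the center of the region (bp) for control-only (members, n = 666), KO-only (n = 726) and shared (n = 8946) distal regions with 3 or more subpeaks. The members lie between 42.9% and 44.1% at every distance, below both other groups; the axis does not start at 0.

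The consensus motifs of 12 transcription factors or families were looked up (either strand) in the middle 200 bp of members, KO-only regions and shared regions, and in windows 5000 bp outside the edges of members. Of 1332 such flanking windows, 737 were at least 1000 bp clear of every region and were used. A member gave up to 2 windows, and fewer or none where other regions lay close, while all members stayed in the comparison. The exact tests took members and windows as unpaired. The MEF2 consensus was present in 1.20% of members (interval 0.610% to 2.35%), 1.24% of KO-only regions, 1.11% of shared regions and 0.271% of flanking windows. Its share was 4.43 times that of the flanking windows, from 8 members and 2 windows (2-sided Fisher's exact test, P = 0.0543, adjusted P = 0.919 over 36 tests). The ERR consensus was the rarest relative to the other groups, with 2 members (0.300%), 7 KO-only regions (0.964%) and 70 shared regions (0.782%). The ERR share of members was 0.311 times that of KO-only regions (exact test, P = 0.182, adjusted P = 0.919), a difference not detectable at these counts. AP-1 was matched in 7.81% of members, 7.30% of KO-only regions, 6.33% of shared regions and 5.29% of flanking windows (exact test against flanking windows, P = 0.0647, adjusted P = 0.919). SRF was matched in 0.601% of members and 1.65% of KO-only regions (exact test, P = 0.0795, adjusted P = 0.919).

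For the remaining motifs, differences from the other groups were not detectable at these counts. GATA was matched in 3.60% of members and 4.27% of KO-only regions, and TBX5 in 0.901% and 0.689%. TEAD was matched in 16 members and 21 KO-only regions (2.89%). The NKX2-5 consensus AAGTGG was matched in 10.1% and 9.78%, and the nuclear receptor (NR) core sequence AGGTCA, which lies within the ERR consensus, in 12.8% and 14.9%. The ETS consensus CCGGAAGT was matched in 2 members and 2 KO-only regions. PU.1 (GAGGAAGT) and RUNX (TGTGGTTT), factors prominent in blood cells, were each matched in 8 members (1.20%), and in 1.79% and 0.826% of KO-only regions. Among all control regions, shares were 1.10% for MEF2, 0.657% for ERR, 3.15% for GATA, 2.95% for TEAD, 6.30% for AP-1, 1.05% for SRF, 0.789% for TBX5, 11.5% for NKX2-5, 13.3% for the NR core sequence, 0.685% for ETS, 1.65% for PU.1 and 1.46% for RUNX. None of the 36 comparisons passed the adjusted threshold, and none had an unadjusted P under 0.05. In the central 1000 bp, however, the MEF2 share of members was 3.20 times that of flanking windows (exact test, adjusted P = 0.0472), and the share of the NR core sequence was 0.858 times that of KO-only regions (exact test, adjusted P = 0.0472). With every group held to regions of 1000 to 3000 bp, the MEF2 ratio was of similar size, at 3.34 times, but did not pass (exact test, adjusted P = 0.227), and neither did the NR core sequence. Base composition was not matched between groups. Median GC content was 43.4% in members and 46.4% in KO-only regions. Median repeat-masked sequence was 12% in the central 200 bp of members and 19.5% in flanking windows. The part of composition in the motif shares was not tested.

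**Figure D4:**
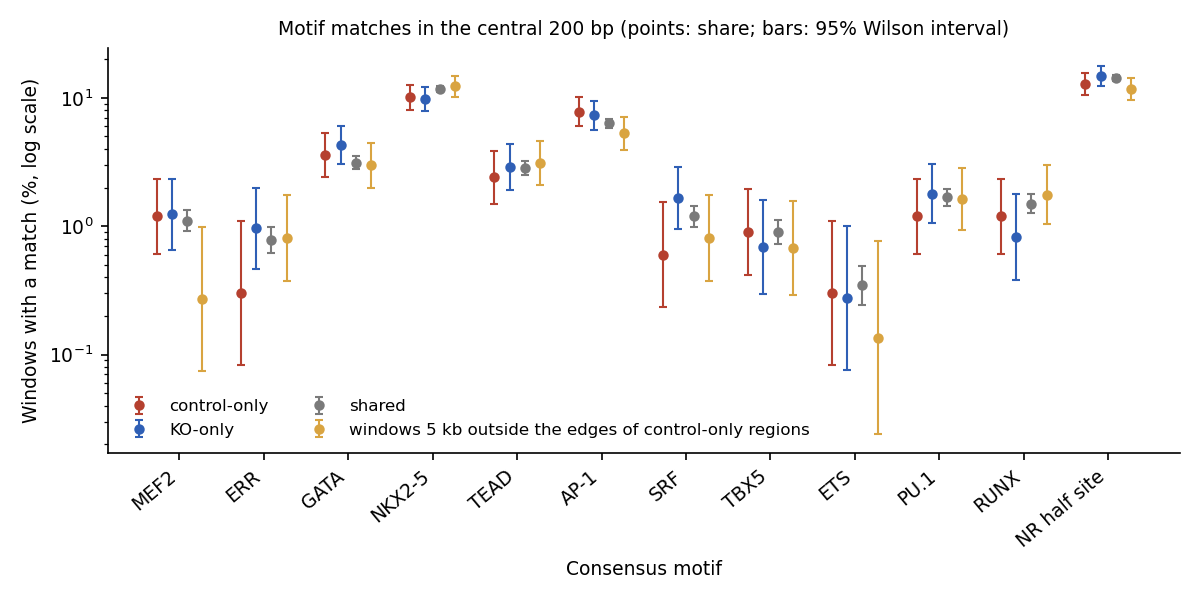
Share of windows (%, log scale) with at least 1 match to each of 12 consensus motifs in the central 200 bp of control-only (members), KO-only and shared distal regions, and in windows 5 kb outside the edges of members; points are shares and bars are 95% Wilson intervals. Intervals of members overlap those of the other groups for every motif, including MEF2 (1.20% of members and 0.271% of flanking windows).

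Members were assigned to 600 protein-coding genes by the nearest TSS, which was 12.8% of the 4670 genes nearest any distal control region with 3 or more subpeaks. Of these genes, 546 had 1 member, 43 had 2, 10 had 3 and 1 had 4. Counts per gene followed the number of distal regions the gene had. The share of genes with a member was 6.66% at genes with 1 distal region, 12.6% with 2, 23.0% with 3 to 5 and 43.8% with 6 to 17. Counted over regions instead, members made up 6.66%, 6.49%, 6.88% and 7.86% of the distal regions in these classes. Genes with a member had a median length of 89.0 kb, against 48.0 kb for all 4670. Gene length was not compared within these classes of distal region number. At 575 of the 600 genes, at least 1 other control region was shared with KO, and at 16 genes the members were the only control regions. A KO-only region of any kind was nearest to 412 of the 600 genes (68.7%), against 56.7% of all 4670, and a distal KO-only region with 3 or more subpeaks to 79 (13.2%), against 9.21% of all 4670. Both shares rose with the number of distal regions of the gene. At genes with 1 distal region, a KO-only region of any kind was nearest to 48.3% with a member and 45.6% without. These shares were 63.9% and 59.3% at 2, 75.24% and 75.04% at 3 to 5, and 95.96% and 91.34% at 6 or more. Within these classes, the gap was thus smaller than over all genes. For distal KO-only regions with 3 or more subpeaks, the shares were 3.49% and 5.98% at 1, and 7.56% and 9.41% at 2. They were 16.67% and 14.04% at 3 to 5, and 29.3% and 23.6% at 6 or more. These shares were not tested. A promoter, taken as 1000 bp upstream to 100 bp downstream of a TSS, held a region in both genotypes for the nearest gene of 550 members (82.6%). It held one in control only for 16 members, in KO only for 29 (4.35%) and in neither for 71 (10.7%). For the nearest gene of other distal regions, both genotypes held the promoter at 86.7% of shared regions, 78.1% of control-only regions of 2 subpeaks and 76.0% of KO-only regions. Of all 21755 protein-coding genes, 47.7% had a promoter region in both genotypes, 2.90% in control only and 4.97% in KO only. Intronic members had a promoter held in both genotypes in 88.0% of cases and intergenic members in 68.6%.

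Genes with 3 members were tied, and the 9 with the largest summed width of members are described here after the gene with 4, which left out *Asap1*. The gene with most members was *Stxbp6*, which encodes a syntaxin-binding protein of exocytosis (ENSMUSG00000046314, chromosome 12, 44852484 to 45074709, minus strand). Its 4 members were all intronic and measured 4967, 4026, 3229 and 1383 bp. They lay 1208 to 10315 bp from the nearest KO region. The first and last of these are among the sequences printed above, with matches to GATA and AP-1. The gene was also nearest to 22 shared control regions and 3 KO-only regions, 1 of them distal with 3 or more subpeaks. *Sorbs2*, an adaptor of the Z-disc cytoskeleton (chromosome 8), had 3 intronic members of 5490, 4952 and 2570 bp, 3326 to 9507 bp from KO regions, and no distal KO-only region with 3 or more subpeaks. *Zbtb20*, a zinc finger repressor (chromosome 16), had 3 members of 4222, 2307 and 5008 bp that lay only 408, 137 and 75 bp from a KO region. They would count as shared if a gap of 1000 bp were allowed. *Ptprg*, a receptor tyrosine phosphatase (chromosome 14), had 3 members of 4794, 3692 and 2188 bp among 52 shared control regions and 10 KO-only regions. *Ankrd44*, a regulatory subunit of protein phosphatase 6 (chromosome 1), had 3 members of 5771, 2682 and 1987 bp. *Apbb2*, an adaptor that binds the amyloid precursor protein (chromosome 5), had 3 members of 1256, 4792 and 4260 bp, but also 2 distal KO-only regions with 3 or more subpeaks.

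**Figure D5:**
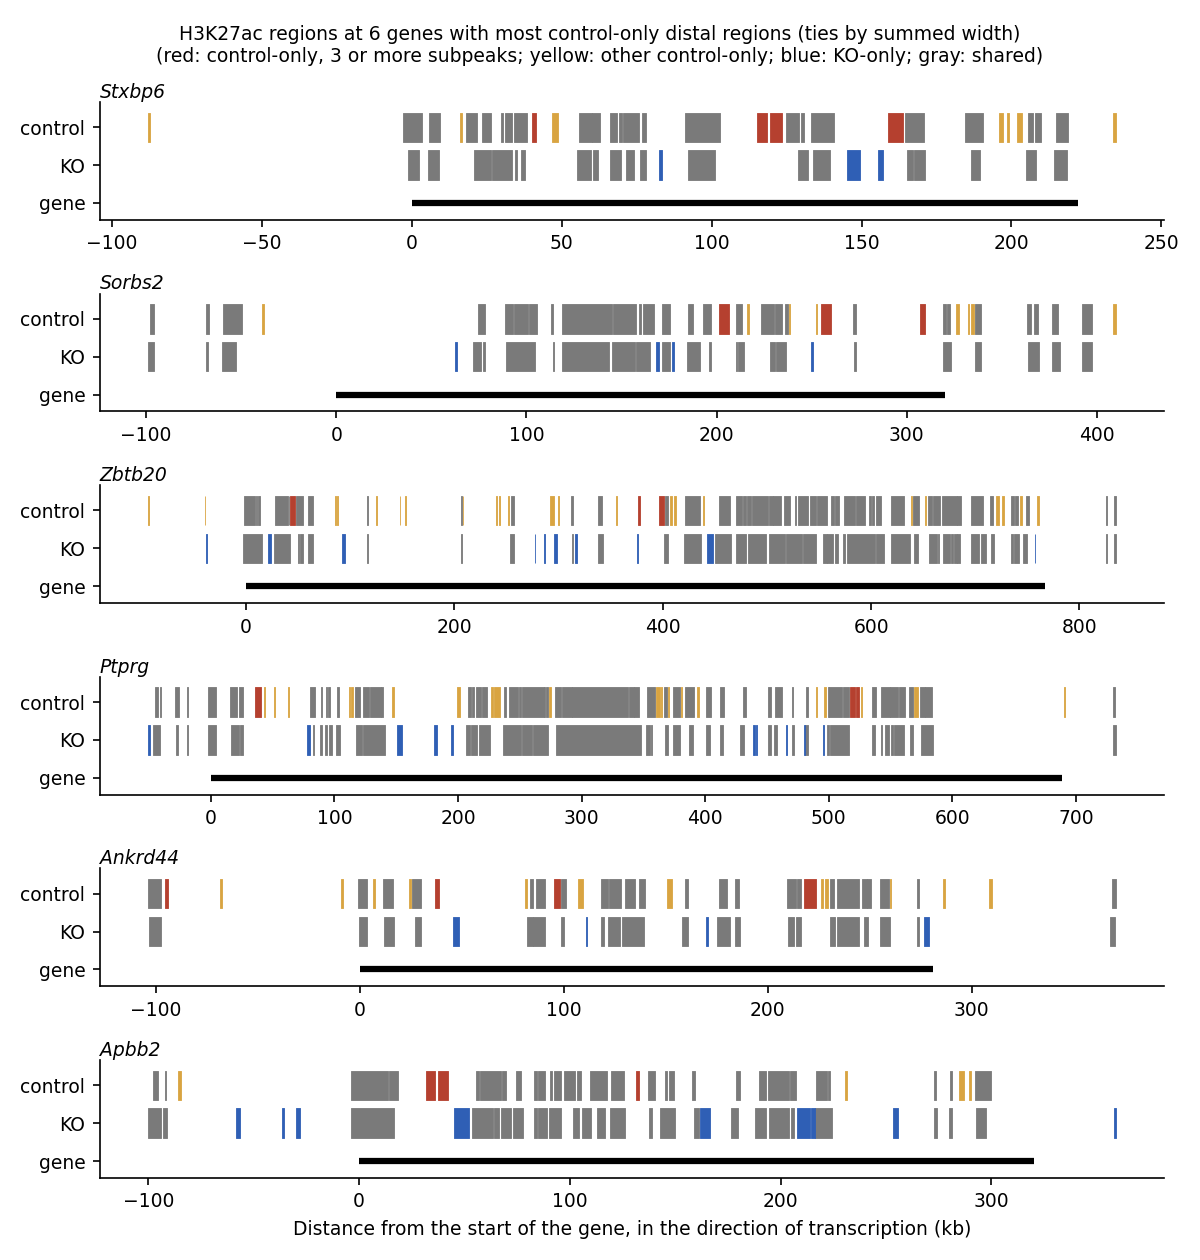
H3K27ac regions around 6 genes with most members (4 at the first and 3 at the others, ties taken by summed width of members), from 100 kb before to 100 kb after the gene; the horizontal axis is distance from the start of the gene in the direction of transcription (kb), with control and KO regions in separate rows and the gene as a black bar. Members (red) lie between shared regions (gray) within the gene bodies, with 4 at Stxbp6 and 3 at each other gene (the leftmost red bar by Ankrd44 is nearest to another gene), and KO-only regions (blue) occur at all 6 genes. Bars have a thin outline so that narrow regions remain visible.

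*Gnaq*, the alpha subunit of the Gq protein that couples alpha-1 adrenergic and angiotensin receptors to phospholipase C (chromosome 19), had 3 intronic members of 2897, 3477 and 3803 bp, at 527, 6215 and 18951 bp from KO regions. It was also nearest to 16 shared control regions and 3 KO-only regions, 1 of them distal with 3 or more subpeaks. *Itpr2*, the inositol trisphosphate receptor isoform most abundant in CMs (chromosome 6), had 3 intronic members of 2852, 1174 and 883 bp, at 11222, 49350 and 1885 bp from KO regions. *Itpr2* also had 5 shared control regions and 4 KO-only regions, but no distal KO-only region with 3 or more subpeaks. *Nedd4l*, a ubiquitin ligase of ion channels, had 2 intronic members and 1 upstream of the gene, which was 35673 bp from any KO region. The uncharacterized gene 1700020N01Rik (chromosome 10) had 3 members downstream, 38440 to 89565 bp from its TSS, and its promoter held a region in control only.

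The members with most subpeaks lay at *Prdm10* and *Adam10*, with 6 each. The region in an intron of *Prdm10*, a zinc finger transcription factor, measured 9949 bp (chromosome 9, 31292379 to 31302327) and lay 9466 bp from a KO region. The region in an intron of *Adam10*, the protease that sheds Notch and other receptors, measured 8355 bp (chromosome 9, 70724969 to 70733323), lay 17374 bp from a KO region and had a GC content of 36.3%. The widest 3 of the 7 members with 5 subpeaks were an intron of the receptor gene *Notch2* (5702 bp), a region downstream of *Rapgef2*, a Rap exchange factor (5600 bp), and an intron of the adenosine receptor gene *Adora2a* (5535 bp). The region at *Notch2* lay 916 bp from a KO region. By width, *Prdm10* was followed by introns of *Akap2*, an anchor of protein kinase A, at 9128 bp with 3 subpeaks, and, after *Adam10*, of *Plcb4*, a phospholipase C, at 7382 bp and *Arap2*, a GTPase-activating protein, at 7076 bp. The promoters of all these genes held regions in both genotypes.

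The members farthest from any KO region lay at genes without a marked promoter. The distances were 536780 bp at *Rims2*, a synaptic scaffold, 388446 bp at *Dab1*, an adaptor of reelin signaling, and 249513 bp at *Hoxb2*, a homeobox gene. The next were 202542 bp away at *Thsd4*, a microfibril-associated protein, and 174562 bp away near Gm12728. Each had 3 subpeaks, with widths of 1130 to 2786 bp. None of the 5 genes had a promoter region in control, and none had one in KO, which the choice fixed at the nearest TSS.

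Gene lists of cardiac function and signaling were read against the 12.8% of genes, and the 6.93% of distal regions, that applied to all genes. No list was tested, and each count is small. Distal KO-only regions with 3 or more subpeaks were nearest to 9.21% of all 4670 genes with a distal control region of 3 or more subpeaks. Their counts per list were not tested either. Across the 22 lists, 53 of 298 genes with a distal control region of 3 or more subpeaks had a member. The lists of adrenergic and cyclic AMP signaling and of calcium cycling held the most members. Of 20 genes of adrenergic and cyclic AMP signaling, 6 had a member, with 10 members among 86 distal regions (11.6%). Besides *Gnaq*, these were *Chrm2*, the muscarinic receptor of the heart, and *Pde4d* with 2 members each, and *Akap13*, *Pde3a* and *Pde4b* with 1 each. The phosphodiesterases encoded by *Pde4d*, *Pde3a* and *Pde4b* degrade cyclic AMP. A distal KO-only region with 3 or more subpeaks was nearest to 3 genes of this list. Of 18 calcium-cycling genes, 6 had a member, with 9 of 65 regions (13.8%). *Itpr1* had 2 wide members of 6331 and 6098 bp with 4 subpeaks each, at 3945 and 3611 bp from KO regions. *Atp2b1*, a plasma membrane calcium pump, *Camk2d*, the main cardiac calcium/calmodulin kinase, and the L-type channel genes *Cacnb2* and *Cacna1c* had 1 each. *Cacna1c* also had 11 KO-only regions, 3 of them distal with 3 or more subpeaks, and 6 calcium-cycling genes had such a KO-only region. Of 17 genes of insulin, IGF and mTOR signaling, 6 had a member (6 of 48 regions, 12.5%). They included *Igf1r* and *Insr*, the receptors, *Pik3cb*, a kinase, *Foxo1*, a transcription factor restrained by Akt, and *Rptor*, a subunit of mTORC1. The promoter of *Pik3cb* held a region in KO only, and 3 genes of the list had a distal KO-only region with 3 or more subpeaks. Among 14 fetal and stress genes, 4 had a member (5 of 35 regions, 14.3%), namely *Ppp3ca*, a catalytic subunit of calcineurin, with 2, and *Nfatc1*, *Nfatc2* and *Nfatc3*, the factors that calcineurin activates, and 2 had such a KO-only region. Of 16 genes of TGF-beta and BMP signaling, 4 had a member (4 of 45 regions, 8.89%), namely the receptor genes *Bmpr2*, *Tgfbr3* and *Acvr1* and the inhibitor *Smad6*, and 1 had such a KO-only region.

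Lists of the contractile apparatus, ion channels and energy metabolism held 0 to 5 members each. Of 22 sarcomere and Z-disc genes, 5 had 1 member each (5 of 55 regions, 9.09%). The widest lay upstream of *Myot*, a Z-disc protein (3985 bp), and the others were at *Pdlim5* (2369 bp), *Myom2* (1169 bp), *Ttn* (1143 bp) and *Csrp3* (1093 bp). Distal KO-only regions with 3 or more subpeaks were nearest to 4 sarcomere genes, 3 ion channel genes, 5 intercalated disc genes, 2 fatty acid genes, 2 triglyceride genes, 2 glucose genes and 0 tricarboxylic acid cycle genes. The share over all genes with a distal control region of 3 or more subpeaks was 9.21%, and these small counts were not tested against it. Among 19 genes of ion channels, only *Kcnj5*, a subunit of the acetylcholine-activated potassium channel, had a member (1 of 54 regions, 1.85%). That region measured 6278 bp, had 4 subpeaks and lay 600 bp from a KO region. *Tjp1* was the single gene with a member among 22 of the intercalated disc (1 of 47 regions, 2.13%). Of 17 genes of fatty acid uptake and oxidation, *Acsl3*, an acyl-CoA synthetase, had 2 members (2 of 33 regions, 6.06%). They measured 3262 and 2234 bp and lay 13837 and 17667 bp from KO regions, and the promoter of *Acsl3* held a region in KO only. None of the 14 genes of triglyceride synthesis had a member among 33 distal regions, which allows a share of up to 9.09% (3 counts of the total). In the tricarboxylic acid cycle, 3 of 13 genes had a member (3 of 23 regions, 13.0%), each intronic. The region at *Suclg2*, a succinyl-CoA synthetase subunit, measured 4335 bp and lay 475 bp from a KO region. The region at *Pdhx*, a pyruvate dehydrogenase component, measured 2732 bp and lay 150 bp away. *Suclg2* was also the single member gene among the 11 that the study names for H3K27ac and that had a distal region. The paper names it among genes near increased H3K27ac in KO CMs, which is the opposite direction to a control-only region. *Suclg2* was nearest to 7 shared control regions and 0 KO-only regions. Of 17 genes of glucose uptake and glycolysis, *Pfkfb3* and *Gpi1* had 1 member each (2 of 33 regions, 6.06%).

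Among transcriptional regulators, 3 of 21 cardiac transcription factor genes had a member (3 of 58 regions, 5.17%). A distal KO-only region with 3 or more subpeaks was nearest to 7 genes of this list, which holds 31 genes in all. Over genes with a distal control region of 3 or more subpeaks, the share was 9.21%. Of all 21755 protein-coding genes, 651 were nearest such a KO-only region. The count of 7 was not tested against either. The 3 cardiac transcription factor genes with a member were *Mrtfb*, a coactivator of SRF, *Mef2a* and *Tead1*. The region at *Mef2a* measured 2412 bp and lay 60 bp from a KO region. Of 13 genes in a list of ERR, PPAR, PGC-1 and other nuclear receptor and mitochondrial regulator genes, 3 had a member (3 of 51 regions, 5.88%). They were at *Nr3c2*, the mineralocorticoid receptor (3674 bp, 2522 bp from a KO region), *Thrb*, a thyroid hormone receptor (1667 bp, 5972 bp), neither of them an ERR or PPAR gene, and *Ppargc1a*, which encodes PGC-1 alpha (1446 bp, 7624 bp). Of 13 corepressor and deacetylase genes, members were at *Hdac9* (4500 bp), *Sirt1* (2417 bp) and *Tbl1x* (2023 bp), or 3 of 55 regions (5.45%). The region at *Sirt1* was the only control-only region nearest that gene. Immediate early genes had 3 members (3 of 39 regions, 7.69%), 2 downstream of *Klf6* and 1 of 5664 bp downstream of *Klf4*. Circadian genes had 2 (2 of 29 regions, 6.90%), at *Bhlhe40* and *Npas2*.

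Across the marker lists of other cardiac cell types, 1 gene had a member. No gene of 20 macrophage and leukocyte markers was nearest a distal control region with 3 or more subpeaks. Such regions were nearest 4 of 20 fibroblast and 5 of 15 smooth muscle markers, and none of these 6 and 11 regions was a member, which allows shares of up to 50% and 27.3% (3 counts of the total). They were also nearest 13 of 20 endothelial markers, with 1 member among 35 regions (2.86%), 23645 bp upstream of *Kdr*, the receptor of VEGF. Distal KO-only regions with 3 or more subpeaks were nearest to 2 of 20 fibroblast, 2 of 15 smooth muscle and 3 of 20 endothelial markers. Over all genes with a distal control region of 3 or more subpeaks, the share was 9.21%. Of all 21755 protein-coding genes, 651 were nearest such a KO-only region. The small counts of the marker lists were not tested against either. H3K27ac at endothelial genes thus occurred in the control list, and the part of other cell types in the members was not tested.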

How the data were processed

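Reads from 3 H3K27ac and 3 IgG CUT&RUN libraries per genotype (paired, 40 bp) were aligned by the authors to GRCm38 with Bowtie2 2.4.2, and duplicates were removed with SAMtools. With HOMER 4.11.1 they called H3K27ac regions per replicate against IgG and merged the calls found in at least 2 of 3 replicates. The deposited lists give, for each merged region, its start, its end and a score that is the same for every region and was not used. Depth is unknown. Broad-region calling and merging can join or split neighboring regions, which changes width, subpeak number and overlap.

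Starts were read as BED starts (counted from 0) and are printed counted from 1. Regions off chromosomes 1 to 19 and X (25 control, 18 KO) were left out. TSS were those of all transcripts of the 21755 protein-coding genes of GENCODE M21. For class and motif shares, 2-sided Fisher's exact tests were used, adjusted by the Benjamini-Hochberg method over 12 and 36 tests. Genes were named by rule: 10 with most members (ties by summed width), those at 5 members with most subpeaks (ties by width), the 5 widest and the 5 farthest from KO regions, and those on 22 lists (510 of 511 symbols matched). The motif-bearing members of the 10 genes were chosen for printing after their values were seen. The members and lists were chosen with earlier results of these data known. Results for some genes are not reported here. Overlap, distance, motif and test steps were tested on simulated data. Alternatives changed the overlap, subpeak, TSS, distance, gene, chromosome, window and motif settings. Python 3.11.15, numpy 2.4.6, scipy 1.17.1 and matplotlib 3.10.9 were used.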

Additional observations from a re-analysis of the deposited data

How the results depend on the processing

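The number of members depended most on what counted as shared and on the subpeak limit. Requiring KO regions to cover at least 50% of a control region before it counted as shared raised it from 666 to 1274, or 13.3% of distal control regions with 3 or more subpeaks, and members then made up 43.4% of members and KO-only regions together, against 47.8% by the rule. Requiring 4 or more subpeaks left 63 members, or 1.98% of distal control regions with 4 or more subpeaks, and 41.7% of these members and the KO-only regions with 4 or more subpeaks. The other 6 settings gave 549 to 769 members. No class comparison passed under any of the 4 alternatives run for it. For motifs, 2 comparisons passed with the central 1000 bp: MEF2 against flanking windows, at 3.20 times, and the NR core sequence against KO-only regions. None passed under the other 6 alternatives, although the MEF2 ratio was 3.34 with regions of 1000 to 3000 bp and 4.42 to 4.48 with 1 region per gene or without chromosome X. With 4 or more subpeaks, the AP-1 share fell below that of flanking windows (0.505 times), and no flanking window held MEF2, so that ratio has no value. A relaxed MEF2 consensus gave 1.23 times the flanking share. The causes were not tested. The GC difference from KO-only regions, for which the alternatives were chosen after seeing the data, ran from -3.71 to -2.77 points. No paired analysis was possible because each list is merged over replicates and carries no value per replicate, and replicates could not be left out in turn for the same reason.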
